A study of Mus musculus with 12 samples.

Results

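Artesunate-treated experimental cerebral malaria (ECM) brain was compared with control brain to find which genes still differed after treatment. The comparison set 8 of the 12 RNA-seq libraries of the study against each other, chosen by their group labels alone: 4 from ECM mice given artesunate for 4 days and 4 from control mice. The model was fitted to all 12 libraries, so its estimate of the spread also drew on the ECM group. All 3 groups of the study, ECM without artesunate being the third with another 4 libraries, were brains of wild type C57BL/6 mice aged 6 weeks. The labels give no parasite strain, no dose and no day of infection. They speak of 4 replicates a group without saying whether these were different mice, so the p-values measure the spread between these samples only. Time since infection and artesunate treatment cannot be told apart in these groups. Of 21983 genes in the count table, 14626 passed the filter on low counts and were tested.

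Cerebral malaria in mice is known for the entry of cytotoxic T cells and monocytes into brain vessels under strong interferon-gamma signalling. Interferon-gamma is known to induce chemokines, guanylate-binding proteins and antigen presentation, whereas type I interferon is known for inducing antiviral genes. Artesunate is an artemisinin derivative that kills blood-stage parasites.

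Treated ECM brain differed from control mainly in 1 direction. At an adjusted p below 0.05 (edgeR quasi-likelihood test, Benjamini-Hochberg adjustment), 287 genes (1.96% of those tested) were higher in treated ECM and 8 (0.0547%) were lower, while the median log2 difference over all genes tested was 0.00631. Levels are given as CPM, the counts-per-million unit after TMM scaling of library sizes. The median log2 fold change of the higher genes was 2.52, and 278 of them differed at least 2-fold, 179 at least 4-fold and 118 at least 8-fold, with the 12 genes that had 0 control counts entered at a lower bound. In 286 of the 287 every treated library lay above every control library, a separation in that direction found in 10.8% of all genes tested. All 8 lower genes were separated the other way, as were 8.3% of all genes tested. Against ECM without artesunate, 126 of the 287 were lower in treated ECM (5.67% of all genes tested were), 10 were higher (3.05% of all) and 151 did not pass the test. The treated mean lay below the ECM mean in 216 of the 279 higher genes that had values in all libraries and above it in 63.

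**Figure D1:**
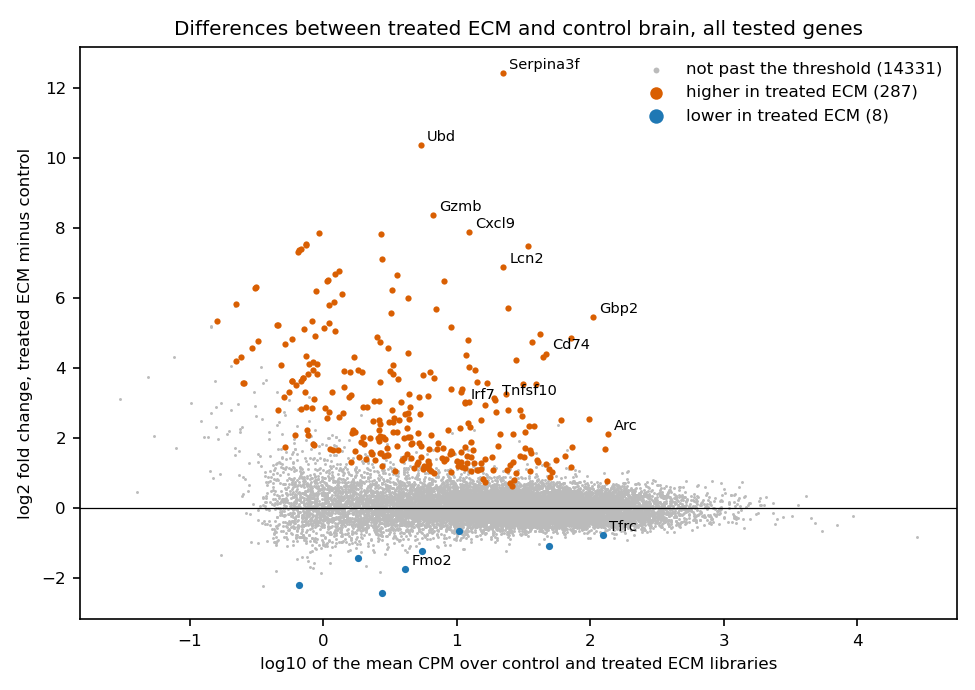
Each point is 1 of the 14626 tested genes, with the log10 of its mean CPM over control and treated ECM libraries on the x axis and its fitted log2 fold change (treated ECM minus control) on the y axis. The 287 higher genes (orange) reach far above the cloud of grey genes, whereas the 8 lower genes (blue) reach down to -2.44; heights of genes with 0 control counts, such as Serpina3f and Ubd, depend on the fit.

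Library totals ranged from 13342177 to 18886822 counts. Mitochondrial transcripts took 4.74% to 5.27% of counts in treated libraries and 5.69% to 6.67% in controls 1, 2 and 3, but 10.7% in control 4, and control 4 also stood apart from the other controls in its gene counts (chi-square per gene 112 to 167 against 14.9 to 21.5 among the others). Without control 4, 266 genes were higher and 5 lower. The tissue label was met by its markers: the 38 tested neuron genes summed to 15770 to 18110 CPM in treated and 15430 to 20620 CPM in control libraries. Choroid plexus genes varied widely within both groups (summed 394 to 1491 CPM in treated and 457 to 1235 CPM in control libraries), and so did cerebellar genes (791 to 3447 and 923 to 3914 CPM). Within the treated group, library 1 was the lowest of the 4 in 239 of the 279 higher genes with values in all treated libraries (85.7%), against 29.2% of all such tested genes.

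The sequences next to the genes with the largest fold were examined for the sites that interferon-activated factors are known to bind. RefSeq promoter windows (build GRCm38.p6, from 250 bases before to 50 after the gene start) were searched on both strands for the core of the interferon-stimulated response element, GAAANNGAA, and for the gamma-activated sequence, TTCNNNGAA. Windows were at hand for 16 of the 20 genes with the largest fold, and 9 of them held at least 1 of these. The share of all tested genes holding at least 1 is not given, so this count has no background beside it. The 6 shown are the first by fold whose match lies before the gene start. Each is 120 bases, 5′ to 3′ on the gene's strand, with the matches in capitals.
Serpina3f (chr12:104214364-104214483, plus strand): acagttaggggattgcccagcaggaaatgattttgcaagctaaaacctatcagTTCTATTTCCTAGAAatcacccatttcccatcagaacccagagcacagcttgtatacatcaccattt
Cxcl9 (chr5:92328191-92328310, minus strand): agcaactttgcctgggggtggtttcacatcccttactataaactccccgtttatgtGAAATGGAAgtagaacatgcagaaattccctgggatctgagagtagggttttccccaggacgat
Cxcl10 (chr5:92349020-92349139, minus strand): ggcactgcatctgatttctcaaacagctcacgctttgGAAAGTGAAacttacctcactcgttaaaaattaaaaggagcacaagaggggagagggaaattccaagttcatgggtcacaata
Ifng (chr10:118440796-118440915, plus strand): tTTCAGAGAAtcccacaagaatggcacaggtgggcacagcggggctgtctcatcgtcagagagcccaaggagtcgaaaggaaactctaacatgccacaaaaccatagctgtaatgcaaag
Ifi205 (chr1:174031826-174031945, minus strand): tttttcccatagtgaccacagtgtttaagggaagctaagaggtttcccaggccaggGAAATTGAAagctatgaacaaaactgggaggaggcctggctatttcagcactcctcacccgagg
Nkg7 (chr7:43436888-43437007, plus strand): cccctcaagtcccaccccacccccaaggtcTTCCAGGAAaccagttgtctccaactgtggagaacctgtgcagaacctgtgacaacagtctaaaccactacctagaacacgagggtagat
In Serpina3f the capitals hold an interferon-stimulated core on the opposite strand that overlaps a gamma-activated sequence. Cxcl9, Cxcl10 and Ifi205 hold the core only, and Ifng and Nkg7 the gamma-activated sequence only. A match describes these letters and does not show that a factor binds there.

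Over all promoters, 27.4% of 208 higher genes with a window held the GAAANNGAA core, against 8.8% of the 11386 tested genes with a window. For TTCNNNGAA the shares were 19.2% and 8.24%. The E-box CACGTG, bound by clock and Myc-type factors, showed the opposite order, with 2.88% and 11.3%, and the heat shock element core GAANNTTC was present in 10.6% and 6.96%. Among lists, the GAAANNGAA core was found in 10 of 14 windows of interferon-gamma-inducible GTPases and regulators and in 18 of 30 of interferon-stimulated genes, but in 0 of 4 of MHC class II and 2 of 17 of T and NK cell markers.

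The interferon-gamma-inducible GTPases and their regulators had the highest share of members higher than in control of the 50 lists. These GTPases attack the membranes of vacuoles that hold intracellular pathogens. Of 23 tested members 20 rose and 0 fell, with a median log2 fold change of 3.81 in treated ECM and 4.38 in ECM, both against control. Gbp2, a guanylate-binding protein gene, was at 4.16, 4.95, 4.29 and 5.28 CPM in the controls and at 117, 222, 224 and 251 CPM in treated libraries 1 to 4. The groups did not overlap, and the difference was 43.5-fold (log2 5.44 ± 0.35 (SE), adjusted p = 1.17e-06, edgeR). Gbp2 was at 250.5 ± 103 CPM (SD, n = 4) in ECM, and treated ECM did not differ from that beyond the spread (adjusted p = 0.525).

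Gbp5, which promotes inflammasome assembly, had the smallest adjusted p of these genes, with 106, 156, 148 and 147 CPM in treated and 4.91, 3.71, 4.87 and 5.61 CPM in control libraries (29.1-fold, adjusted p = 1.25e-07, edgeR). Its treated mean of 139 ± 22.4 CPM stood beside 94.3 ± 20.6 CPM in ECM, a difference that missed the threshold (adjusted p = 0.0768). The immunity-related GTPase genes Igtp and Iigp1 rose 19.8-fold and 31.4-fold over control, to 84.4 ± 25.5 and 81.0 ± 17.4 CPM. Cd274, which encodes the T cell inhibitory ligand PD-L1, rose 18.7-fold to 53.0 ± 12.1 CPM and was lower than the 114 ± 27.6 CPM of ECM (adjusted p = 0.00685).

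Among the ligands, Ifng itself, the cytokine of T and NK cells, had 0 counts in all 4 controls and 0.677, 1.27, 1.14 and 2.21 CPM in treated libraries, at least 27.3-fold higher against a floor of 3 counts over the control group. Of 18 tested chemokine genes, 9 rose and 0 fell (median log2 3.24 in treated ECM and 4.40 in ECM, both against control). The CXCR3 ligand gene Cxcl9, which draws activated T cells, was at 7.49, 24.8, 32.4 and 33.1 CPM in treated libraries and at 0.218 CPM or less in every control (adjusted p = 1.78e-05, edgeR). Its ECM mean was 23.7 ± 10.3 CPM against 24.5 ± 11.9 CPM in treated ECM (adjusted p = 0.961). Cxcl10, another CXCR3 ligand gene, was at 35.4, 77.8, 83.9 and 74.9 CPM in treated libraries and at 0.385 ± 0.305 CPM in controls.

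The monocyte attractant Ccl2 behaved differently in size. It rose over control from 0.0921 ± 0.108 to 1.33 ± 0.626 CPM (13-fold, adjusted p = 0.00516, edgeR), and was 9.32-fold lower than in ECM (12.4 ± 4.46 CPM, adjusted p = 0.00137). Ccl5, made by cytotoxic lymphocytes among others, was at 4.68, 3.55, 5.32 and 12.3 CPM in treated libraries and at most 0.16 CPM in controls, and its ECM mean was 24.3 ± 15.3 CPM.

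Of 41 tested interferon-stimulated genes, 28 rose over control and 0 fell (median log2 1.88), and 31 of the 41 were lower in treated ECM than in ECM, where the median against control was 3.62. All 41 had a positive log2 fold change against control. Rsad2, which encodes the antiviral enzyme viperin, was at 6.77, 6.16, 8.42 and 8.72 CPM in treated and at 1.17, 0.804, 1.45 and 1.76 CPM in control libraries (5.80-fold, adjusted p = 0.000159, edgeR). Every treated library lay above the controls and below every ECM library (54.9 ± 16.9 CPM, 7.29-fold higher than treated ECM). Irf7, the amplifier of type I interferon, rose 8.02-fold to 20.3 ± 4.63 CPM. The ubiquitin-like modifier gene Isg15 rose 9.16-fold. Zbp1, a sensor of left-handed nucleic acid that can start necroptosis, was at 8.43, 14.6, 13.4 and 18.2 CPM in treated and 0.371 CPM or less in control libraries, and did not differ from ECM beyond the spread (21.3 ± 5.73 CPM, adjusted p = 0.272).

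Genes of antigen presentation differed in both classes. Of 21 tested MHC class I and peptide-loading genes, 14 rose over control and 0 fell (median log2 1.42), with a median of 2.59 in ECM against control. The peptide transporter gene Tap1 was at 23.4, 35.6, 28.1 and 36.6 CPM in treated libraries and at 2.57 ± 0.394 CPM in controls (12-fold, adjusted p = 1.17e-06, edgeR). The immunoproteasome genes Psmb8 and Psmb9 rose 12.1-fold and 13.1-fold. Psmb9 and Tap1 overlap on opposite strands of chromosome 17 in the GENCODE M21 annotation, and the counting is not stated to use strand, so some reads of the pair cannot be assigned for certain. H2-K1, a class I heavy chain gene, rose 5.79-fold to 168 ± 36.8 CPM. The light chain gene B2m did not pass the test (176, 286, 230 and 314 CPM in treated against 96.7, 94.7, 104 and 197 CPM in control libraries, adjusted p = 0.269). Its highest control was library 4, but B2m passed in 0 of the 12 omissions of 1 library. It passed when the 3 libraries with over 10% mitochondrial reads (control 4, ECM 2 and ECM 3) were left out (log2 1.36, adjusted p = 0.00151, edgeR). That alternative was chosen after seeing the data. The H2 genes are near-identical copies of one another, and reads may have been split between them.

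MHC class II stood highest in treated ECM relative to ECM, with a median log2 difference of 0.80 that was the largest of the 50 lists. The choroid plexus and ependyma list was close at 0.76 and the striatum list at 0.72. Higher than in ECM were 2 of 7 tested class II genes, 1 of 22 choroid plexus and ependyma genes and 7 of 18 striatum genes (3.05% of all tested genes were). Of the 7 tested class II genes 6 rose over control and 0 fell, with a median log2 of 3.38 in treated ECM and 2.16 in ECM. Ciita, the master regulator of class II transcription, was at 1.23, 1.18, 1.09 and 0.947 CPM in controls, at 1.90, 0.788, 0.800 and 1.86 CPM in ECM, and at 4.32, 9.31, 6.97 and 7.90 CPM in treated ECM. All 4 treated libraries were above all others. The difference was 6.36-fold against control (log2 2.67 ± 0.35, adjusted p = 0.000639, edgeR) and 5.23-fold against ECM (adjusted p = 0.0017), whereas ECM did not pass against control (adjusted p = 0.718).

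H2-Eb1, a class II beta chain gene, followed with 9.26, 22.98, 13.6 and 19.9 CPM in treated ECM, 1.56 ± 0.505 CPM in control and 7.01 ± 1.78 CPM in ECM (adjusted p = 0.0315 against ECM). The invariant chain gene Cd74 rose 21.3-fold to 88.4 ± 36.0 CPM, and H2-Aa rose 16.4-fold to 23.1 ± 8.10 CPM. Neither passed against ECM, at 50.6 ± 11.8 CPM for Cd74 (adjusted p = 0.139) and 12.4 ± 3.89 CPM for H2-Aa (adjusted p = 0.0905). In all 4 of these genes treated library 1 was the lowest treated library. The summed class II level was 95.7 to 244 CPM in treated ECM, 15.6 to 23.5 CPM in controls and 84.1 to 134 CPM in ECM. The dendritic cell list had 1 of 5 tested members higher than control (Itgax) with a median log2 of -0.05. Itgax is also on the activated microglia list and Siglech on the homeostatic microglia list. Which cells carried the class II transcripts was not tested.

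**Figure D2:**
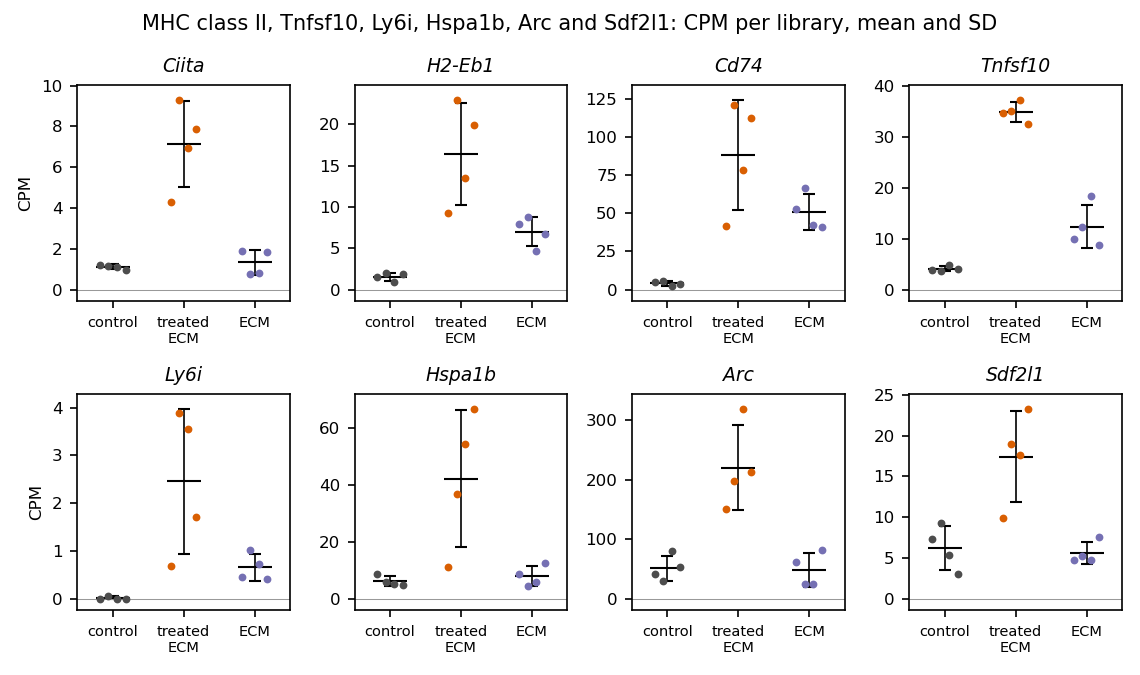
CPM per library (points) with the group mean and SD (bars) on a linear y axis, for 8 genes in control, treated ECM and ECM libraries. The treated libraries lie above the controls in all 8 panels, and in Ciita, H2-Eb1, Tnfsf10, Arc and Sdf2l1 they also lie above all 4 ECM libraries.

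Most tested T and NK cell markers and most monocyte markers were higher than in control. In these bulk samples, a change in the number of cells of a type and a change in RNA per cell cannot be told apart. Of 26 tested T and NK cell markers 15 rose over control and 0 fell (median log2 3.38, or 3.20 with zero-count controls at their bound), and 18 of the 26 were lower in treated ECM than in ECM. Gzmb, the granzyme B gene of cytotoxic lymphocytes, was at 7.96, 8.71, 14.9 and 21.4 CPM in treated libraries, with 856 treated counts against 2 control counts (ratio 413, 95% exact counting interval 114 to 3415). It was 5.23-fold lower than in ECM (69.2 ± 22.1 CPM, adjusted p = 0.00162, edgeR). The CD8 coreceptor gene Cd8a was at 2.13, 0.804, 2.34 and 4.23 CPM in treated libraries, against at most 0.186 CPM in controls and 10.1 ± 2.40 CPM in ECM. Its partner Cd8b1 had 0 control counts and was at least 39.2-fold higher in treated ECM. Treated library 4 was the highest for Gzmb, Cd8a and Cd8b1.

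The summed T and NK list overlapped between groups, at 571 to 696 CPM in treated and 466 to 614 CPM in control libraries. Most of this sum was Thy1, a gene also on the neuron list, at 511 to 628 CPM in treated and 449 to 599 CPM in control libraries, so the overlap does not describe T and NK cells. Among B and plasma cell markers 0 of 3 tested genes passed. The list members in the count table, tested or not, summed to 96.3 to 142 CPM in treated and 65.8 to 100.1 CPM in control libraries. The B and plasma cell markers Cd79a, Ms4a1 and Jchain were each at 0.48 CPM or less in every treated and control library. This sum therefore does not describe B and plasma cells.

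Of 20 tested monocyte and macrophage markers 14 rose and 0 fell (median log2 2.09), and 12 were lower than in ECM. Ly6c2, a marker of inflammatory monocytes that activated T cells also carry, was at 4.22, 5.63, 5.19 and 6.89 CPM in treated libraries, with 356 treated counts against 2 control counts (ratio 172, 95% interval 47.2 to 1424). Its ECM mean was 28.6 ± 14 CPM. Cybb, which encodes the phagocyte oxidase subunit, rose 9.60-fold to 7.91 ± 3.15 CPM, and Lyz2, the lysozyme gene of myeloid cells, rose 4.31-fold to 34.3 ± 9.05 CPM. Both were lower than in ECM (adjusted p = 0.00388 and 0.00716). The summed list stood at 249 to 392 CPM in treated, 136 to 199 CPM in control and 445 to 846 CPM in ECM libraries, with no overlap. Ly6c1, a list member that also marks brain endothelium, gave 80.0 to 140 CPM of the treated sums and 32.5 to 35.7 CPM of the control sums. The sum therefore does not describe monocytes and macrophages alone.

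Ly6i, a further Ly6 family gene of myeloid cells, went the other way against ECM. It was at 0.677, 3.89, 3.55 and 1.71 CPM in treated ECM, with 154 treated counts against 1 control count, and at 0.653 ± 0.282 CPM in ECM (3.76-fold higher in treated ECM, adjusted p = 0.0484, edgeR). Treated library 1 lay within the range of the ECM libraries, so the groups overlapped. Ly6 genes lie in a family of close copies, and reads may be shared between them. Of 5 tested neutrophil markers S100a8 and S100a9 rose, to 1.01 ± 0.193 and 1.49 ± 0.498 CPM, and neither differed from ECM beyond the spread (adjusted p = 0.252 and 0.716). The others, Csf3r, Mmp8 and Mmp9, did not pass (log2 0.24, 0.84 and -0.0002). Ly6g, untested, had 0 counts in the treated and control libraries.

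**Figure D3:**
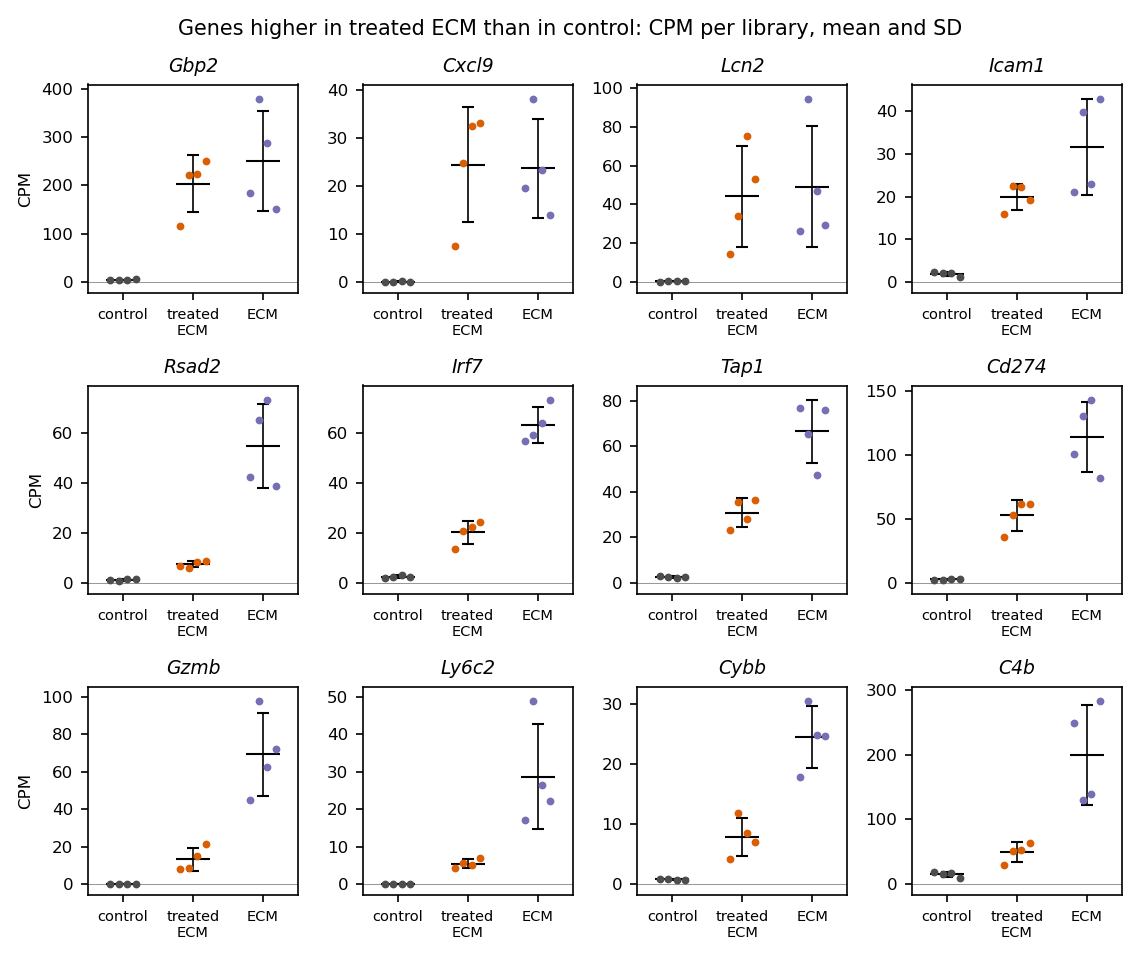
CPM per library (points) with the group mean and SD (bars) on a linear y axis, for 12 genes that were higher in treated ECM than in control. Gbp2, Cxcl9, Lcn2 and Icam1 overlap between treated ECM and ECM, whereas for Rsad2, Irf7, Tap1, Cd274, Gzmb, Ly6c2, Cybb and C4b every treated library lies below every ECM library.

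Cytokine genes with opposing roles were both above control. Il1b was at 1.35, 1.94, 1.96 and 1.07 CPM in treated and at most 0.186 CPM in control libraries (15.3-fold, adjusted p = 0.00138, edgeR), with 1.57 ± 0.534 CPM in ECM. Il1rn, which encodes the antagonist of the interleukin-1 receptor, had 0 control counts and was at 0.885, 1.67, 1.77 and 1.58 CPM in treated libraries (at least 30.55-fold higher). Tnfsf10, which encodes the death ligand TRAIL, had the smallest relative spread of the genes that exceeded both other groups. It was at 34.7, 35.04, 37.3 and 32.5 CPM in treated ECM, 3.84, 3.65, 4.80 and 4.06 CPM in control and 10.03, 12.3, 18.4 and 8.78 CPM in ECM. The 3 groups did not overlap, and the treated mean was 8.53-fold that of control (log2 3.09 ± 0.23, adjusted p = 3.86e-06) and 2.82-fold that of ECM (adjusted p = 0.00162). Of 34 tested cytokine and receptor genes, 10 rose over control and 0 fell.

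Glial genes were counted in lists of microglia, complement and astrocytes. Of 18 tested homeostatic microglia genes only P2ry6 rose (2.28-fold to 3.84 ± 0.838 CPM, adjusted p = 0.0142, edgeR), and its call was lost without control 2 (adjusted p = 0.056) and without treated library 2, 3 or 4 (0.0667, 0.0508 and 0.0527). With 1.96% of all tested genes called higher, a count of 1 in a list of this size is near that share. P2ry12, the purinergic receptor gene of resting microglia, was at 32.3, 36.0, 23.7 and 16.4 CPM in treated and 42.0, 43.6, 42.9 and 95.7 CPM in control libraries and did not pass (adjusted p = 0.264). Its groups did not overlap, with control 4 the highest. Of 27 tested genes of activated microglia 5 rose (median log2 0.47, against 1.30 in ECM).

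Of 17 tested complement genes 5 rose (median log2 1.04); this count ranged from 3 without control 3, treated library 2 or treated library 4 to 8 without treated library 1. C1qb, a subunit of the recognition molecule made by microglia, rose 2.01-fold to 68.7 ± 9.90 CPM. The central component gene C3 rose 4.45-fold to 5.82 ± 2.13 CPM, and C4b rose 3.29-fold to 49.5 ± 14.8 CPM while being 4.05-fold lower than in ECM (200.3 ± 77.4 CPM, adjusted p = 0.00288).

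Of 33 tested reactive astrocyte genes 6 rose and 0 fell (median log2 0.81, against 2.24 in ECM), and 17 were lower in treated ECM than in ECM. Lcn2, which encodes the iron-siderophore carrier lipocalin 2, was at 14.5, 33.8, 75.1 and 53.3 CPM in treated and at 0.541 CPM or less in control libraries (118-fold, adjusted p = 4.86e-05, edgeR). Its ECM mean was 49.2 ± 31.3 CPM (adjusted p = 0.862 against treated ECM). Gfap, the intermediate filament gene that defines reactive astrocytes, was at 246, 309, 419 and 528 CPM in treated and 219, 274, 204 and 167 CPM in control libraries. It missed the threshold (log2 0.80 ± 0.23, adjusted p = 0.14) and the groups overlapped, while ECM was at 926 ± 121 CPM. Gfap passed without treated library 1 (adjusted p = 0.0417) and with DESeq2 (0.0352). Vim and Serpina3n did not pass either (adjusted p = 0.583 and 0.507, edgeR). The 6 that rose were C3, Cd14, Cxcl10, Lcn2, Psmb8 and Socs3. C3, Cd14, Cxcl10 and Psmb8 are also counted in the complement, monocyte, chemokine and MHC class I lists. Lcn2 and Cxcl10 are also made by endothelial and myeloid cells.

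Serpina3f, a serine protease inhibitor gene induced by interferon-gamma, had the largest difference of all. It had 0 counts in the 4 controls and was at 23.3, 59.0 and 51.2 CPM in treated libraries 1 to 3, at least 905-fold higher. In the authors' deposited table its counts were 447, 881, 808 and 857 in treated libraries 1 to 4; the value of library 4 in the count table was displaced and was not used. It was higher than in ECM (17.2 ± 4.77 CPM, 2.62-fold, adjusted p = 0.0356, edgeR). Ubd, which encodes the ubiquitin-like protein FAT10, also had 0 control counts and was at 4.16, 16.8, 8.36 and 13.5 CPM in treated libraries (at least 218-fold higher), with 7.96 ± 4.29 CPM in ECM (adjusted p = 0.605). Ifi205, an interferon-inducible DNA sensor family gene, was at least 26.05-fold higher than its 0 control counts, and its call was lost without control 1 (adjusted p = 0.0508).

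Of 39 tested genes of endothelial activation and adhesion 14 rose over control and 0 fell (median log2 0.81, against 1.56 in ECM), and 11 of the 39 were lower in treated ECM than in ECM. Icam1, which encodes the ligand of the lymphocyte integrin LFA-1, was at 15.9, 22.4, 22.3 and 19.3 CPM in treated and 2.24, 2.04, 2.03 and 1.29 CPM in control libraries (10.4-fold, adjusted p = 1.37e-05, edgeR), and at 31.7 ± 11.2 CPM in ECM. Vcam1, the ligand gene of the integrin VLA-4, was at 73.6, 87.8, 82.3 and 74.1 CPM in treated and 31.1 ± 5.19 CPM in control libraries, and at 53.3 ± 14.6 CPM in ECM, and each treated library was above each ECM library although the test missed the threshold (adjusted p = 0.0774). The selectin genes Sele and Selp, which support leukocyte rolling, were at 2.75 ± 0.717 and 5.13 ± 2.23 CPM in treated, 0.0351 ± 0.0406 and 0.172 ± 0.181 CPM in control and 1.40 ± 1.10 and 3.71 ± 0.989 CPM in ECM.

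Of 42 tested genes of endothelial identity, junctions and barrier transport, 2 rose (Ly6a, 5.74-fold, and Ly6c1, 3.32-fold) and 2 fell (Tfrc and Bmx), and the median log2 was 0.00. Over all tested genes 1.96% were called higher and 0.0547% lower. Ly6a and Ly6c1 mark brain endothelium and are also interferon-inducible, and both were close to ECM (adjusted p = 0.795 and 0.506). The summed level of this list was 2204 to 2410 CPM in treated and 2069 to 2396 CPM in control libraries.

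Of the 8 lower genes 6 were lower by 2-fold or more and 2 by 4-fold or more (median log2 -1.34). Tfrc, the transferrin receptor gene through which brain endothelium takes up iron, was at 115, 88.3, 82.7 and 78.2 CPM in treated, 166, 146, 167 and 151 CPM in control and 179 ± 29.3 CPM in ECM. All treated libraries lay below all others, and Tfrc fell 1.73-fold against control (log2 -0.79 ± 0.16, adjusted p = 0.0175, edgeR) and was 1.96-fold lower than in ECM (adjusted p = 0.00374). Without control 1, control 3 or treated library 2, 3 or 4, its adjusted p was 0.0652, 0.0695, 0.0814, 0.0862 and 0.0906.

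Fmo2, a flavin monooxygenase gene, was at 2.76, 1.47, 1.14 and 2.15 CPM in treated and 5.12, 4.95, 7.77 and 7.64 CPM in control libraries (3.36-fold lower, adjusted p = 0.00941, edgeR). It was the only one of the 8 to keep its call in all 12 omissions of 1 library. Ptprb, which encodes the endothelial phosphatase VE-PTP that restrains Tie2, was 2.14-fold lower at 31.4 ± 8.80 against 67.2 ± 11.7 CPM, and without treated library 4 its adjusted p was 0.0575. Hmcn1, which encodes the matrix protein hemicentin 1, was 2.36-fold lower, and without treated library 2 its adjusted p was 0.0509. The ECM means were 41.7 ± 6.07 CPM for Ptprb, 2.57 ± 0.400 CPM for Hmcn1 and 2.68 ± 0.806 CPM for Fmo2. Against control, ECM was lower for Hmcn1 and Fmo2 (adjusted p = 0.000553 and 0.0233, edgeR) and missed the threshold for Ptprb (0.0524).

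Bmx, an endothelial tyrosine kinase gene, was at 0.972 ± 0.161 CPM in treated, 2.64 ± 0.571 CPM in control and 2.74 ± 0.948 CPM in ECM, with every treated library below all others. Its adjusted p of 0.0268 rose to between 0.0603 and 0.11 without control 1, 3 or 4 or any of the 4 treated libraries. Bach2, a transcriptional repressor gene of lymphocytes and neurons, was at 8.03 ± 0.714 against 12.8 ± 1.37 CPM in control (1.60-fold lower, adjusted p = 0.0465), and its call was lost in 10 of the 12 omissions, all except ECM 2 and ECM 3, with an adjusted p of up to 0.188. The ECM mean of Bach2 was 7.83 ± 0.465 CPM, also lower than control (adjusted p = 0.011, edgeR). Asb14 (0.231 ± 0.0701 against 1.09 ± 0.557 CPM) lost its call in 8 of 12, all except control 1 and ECM 2, 3 and 4, with an adjusted p of up to 0.124. Gm765, a predicted gene outside the rule for named genes and added because it completes the 8, was at 0.858 ± 0.348 against 4.67 ± 3.50 CPM. Among the 12 omissions it kept its call only without control 2, ECM 2 or ECM 3, with an adjusted p of up to 0.134 elsewhere. With the treated and control libraries alone its adjusted p was 0.0751 (edgeR). Of the 8, Tfrc, Bmx, Asb14 and Gm765 were also lower than in ECM.

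**Figure D4:**
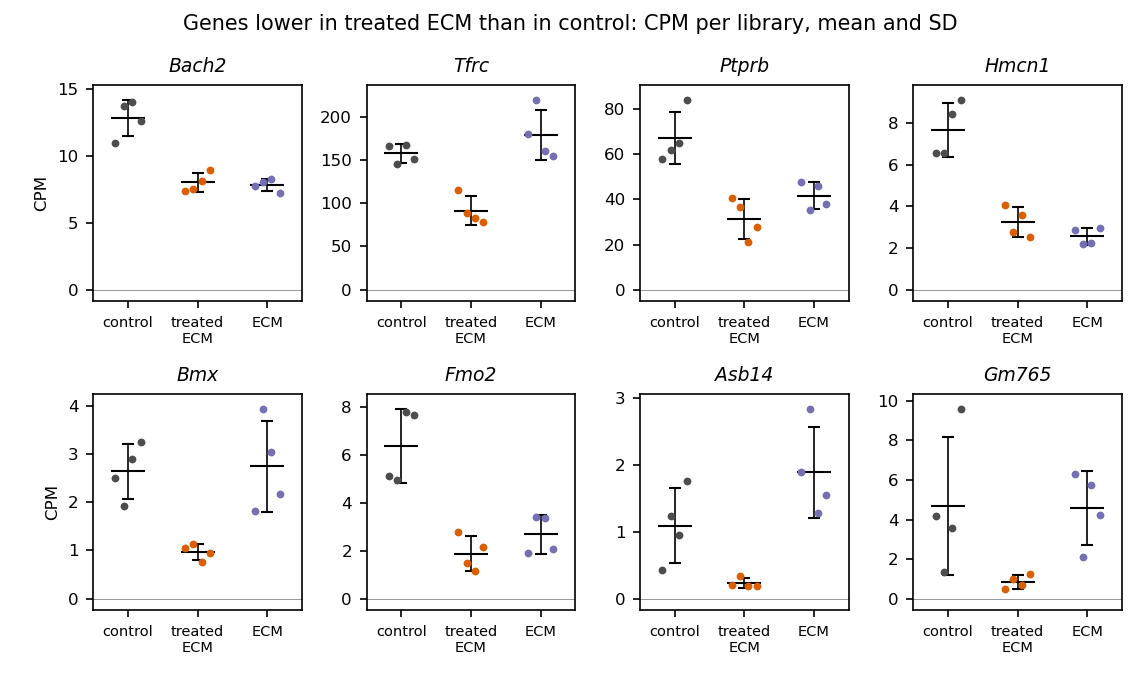
CPM per library (points) with the group mean and SD (bars) on a linear y axis, for the 8 genes that were lower in treated ECM than in control. In all 8 panels the treated libraries lie below the controls; in Bach2, Ptprb, Hmcn1 and Fmo2 the treated and ECM libraries overlap, and in Tfrc, Bmx, Asb14 and Gm765 they do not.

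Some genes were called higher in treated brain than in both control and ECM. Of the 287 higher genes 10 were also called higher against ECM, a share near the 3.05% of all tested genes. The comparisons share the treated libraries. These 10 genes were Ciita, H2-Eb1, Tnfsf10, Ly6i, Serpina3f, Hspa1a, Hspa1b, Arc, Sdf2l1 and Creld2. Hspa1b, an inducible heat shock protein 70 gene, was at 11.2, 36.8, 54.4 and 67.0 CPM in treated ECM, 8.54, 6.00, 5.23 and 4.73 CPM in control and 8.81, 4.33, 6.00 and 12.7 CPM in ECM. Treated library 1 stood far below the other treated libraries and within the range of ECM. The difference was 6.88-fold against control (adjusted p = 0.00535, edgeR) and 5.28-fold against ECM (adjusted p = 0.00853). Its near-identical copy Hspa1a showed 7.39, 20.4, 24.4 and 31.0 CPM in treated and 4.15 ± 1.03 CPM in control libraries, and the 2 genes can share reads. They were the only 2 of 25 tested heat shock chaperone genes to rise (median log2 0.20), although the count was 4 without treated library 1 or without ECM 3. The share called higher over all tested genes was 1.96%.

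Arc, a synaptic gene induced by neuronal activity, was at 150.5, 198, 319 and 213 CPM in treated, 40.9, 30.3, 79.6 and 53.2 CPM in control and 48.0 ± 28.8 CPM in ECM. The treated libraries lay above all others, 4.32-fold over control (adjusted p = 0.0154, edgeR) and 4.58-fold over ECM (adjusted p = 0.00782). Its call against control was lost without control 1 (adjusted p = 0.0685), control 2 (0.0609) or treated library 3 (0.0549). Of 35 tested immediate early genes 9 rose and 0 fell (median log2 1.16, and 1.06 in ECM), a count that ran from 4 without control 1, control 2 or treated library 3 to 13 in other omissions. Atf3, a stress-induced transcription factor gene, rose 6.58-fold to 7.51 ± 2.49 CPM, beside 7.77 ± 3.30 CPM in ECM, and Ptgs2, which encodes the prostaglandin synthase COX-2, rose 3.42-fold to 31.4 ± 5.85 CPM. Cyr61, a matrix-associated early gene, rose 2.92-fold and was 5.20-fold lower than in ECM.

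Among 28 genes of the unfolded protein response the 2 that rose were Sdf2l1 (2.78-fold, 17.4 ± 5.62 CPM, adjusted p = 0.0383, edgeR) and Creld2 (1.68-fold, 20.5 ± 3.26 CPM, adjusted p = 0.0339), both residents of the endoplasmic reticulum. The share called higher over all tested genes was 1.96%. The Sdf2l1 call was lost in 8 of the 12 omissions (all except control 2, ECM 3, ECM 4 and treated library 1; adjusted p up to 0.146). It was also lost with the treated and control libraries alone (adjusted p = 0.0845, edgeR). The Creld2 call was lost in 6 (controls 1, 2 and 3 and treated libraries 2, 3 and 4; adjusted p up to 0.161). The count of this list was 4 without treated library 1, 0 without control 1, control 3 or treated library 2, 3 or 4, and 1 without control 2, control 4, ECM 1 or ECM 2.

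Genes of lytic cell death, of iron handling and of the matrix were counted as lists of their own, beside 1.96% of all tested genes called higher and 0.0547% lower. Of 25 tested inflammasome and cell death genes 4 rose and 0 fell (median log2 0.83). Casp4, which encodes the sensor of cytosolic lipopolysaccharide, was at 1.41, 4.69, 4.31 and 4.55 CPM in treated and 0.502 ± 0.186 CPM in control libraries (7.29-fold, adjusted p = 0.00248, edgeR). Mlkl, the executor gene of necroptosis downstream of Zbp1, rose 7.15-fold to 1.83 ± 0.489 CPM and was 2.77-fold lower than in ECM (adjusted p = 0.0198). Of 36 tested genes of heme, iron and oxidative stress 4 rose and 1 fell, the last being Tfrc. Hmox1, which encodes the heme-degrading enzyme heme oxygenase 1, was at 5.10, 8.98, 9.31 and 10.8 CPM in treated and 4.11, 4.76, 3.63 and 3.18 CPM in control libraries (2.17-fold, adjusted p = 0.0481). It stood 7.73-fold lower than in ECM (66.0 ± 19.4 CPM, adjusted p = 0.000188), and its call against control was lost in 9 of 12 omissions, all except ECM 1, ECM 2 and treated library 1, with an adjusted p of up to 0.176. It was also lost with the treated and control libraries alone (adjusted p = 0.0606). Of 49 tested matrix genes 3 rose, among them the basement membrane collagen gene Col4a1 (2.59-fold to 57.2 ± 12.8 CPM, adjusted p = 0.0128), which was 2.29-fold lower than in ECM (adjusted p = 0.0153).

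In the lists of ribosomal proteins and of mitochondrially encoded mRNAs 0 members passed the threshold, while the summed levels of treated and control libraries did not overlap. The 58 tested cytosolic ribosomal protein genes summed to 4943 to 5417 CPM in treated and 3742 to 4292 CPM in control libraries (median log2 0.45). The 13 mitochondrially encoded mRNAs in the count table summed to 46160 to 50230 CPM in treated and 55600 to 114700 CPM in control libraries, the highest control being library 4. The median log2 of the 12 tested was -0.51. Such separation was not particular to these lists. With 0 members called, potassium channels summed to 4787 to 5271 CPM in treated and 5314 to 5645 CPM in control libraries. Metallothioneins and zinc transport, also with 0 called, summed to 873 to 1234 CPM in treated and 652 to 846 CPM in control libraries. No test of these sums was made.

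Lists of neurons and myelin showed no member past the threshold; with 1.96% of all tested genes called higher and 0.0547% lower, a count of 0 in lists of this size is near that share. For neurons this was 0 of 38 tested (median log2 -0.07), for myelinating oligodendrocytes 0 of 30 (0.03), for oligodendrocyte precursors 0 of 22 (0.05), for homeostatic astrocytes 0 of 22 (0.06) and for striatum 0 of 18 (0.02), by edgeR. Mbp, which encodes myelin basic protein, was at 3950 to 6040 CPM in treated and 2220 to 5700 CPM in control libraries. In all, 20 of the 50 lists with a tested member had 0 called genes. Of the 287 higher genes, 177 were on at least 1 list and 110 on none.

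**Figure D5:**
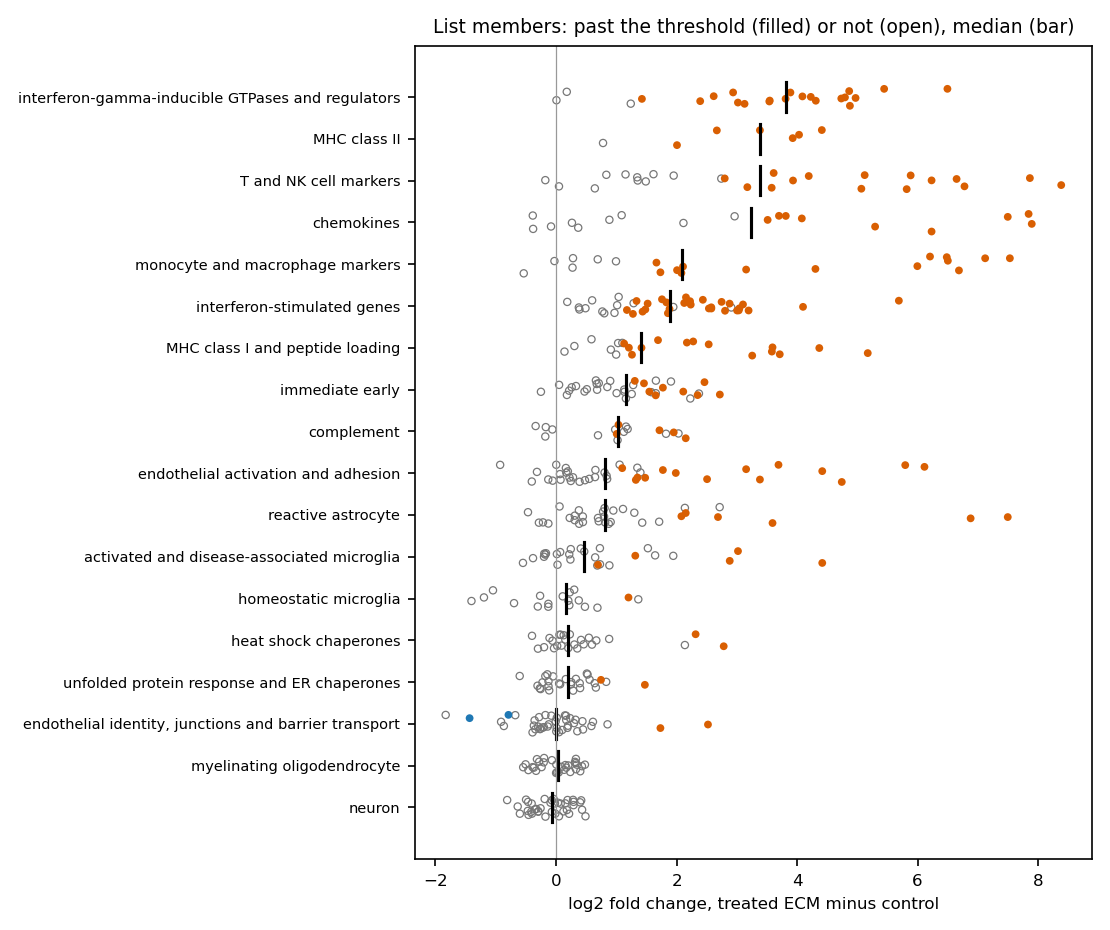
Fitted log2 fold changes (treated ECM minus control, x axis) of the tested members of 18 gene lists, filled where a member passed the test and open where it did not, with the list median as a black bar. The interferon-gamma-inducible GTPases have the highest median, 3.81, and the neuron list the lowest, -0.07, with all its points open.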

How the data were processed

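RNA was measured in 12 mouse brain libraries. Per the submitters' processing notes, the tools were FastQC, Trimmomatic, STAR and HTSeq, with build mm10. Tool versions and the annotation were "not given in the sources used here". A raw read count per gene makes up the deposited file. The authors' deposited table of this comparison also gives a log2 fold change, a p-value, a normalized signal and an FPKM per gene, per the file headers; signal and FPKM values were not used. It lists 554 genes as higher and 83 as lower, with an unadjusted p of up to 0.0497 and an absolute log2 fold change of at least 1.0; at an adjusted p below 0.05 the authors' deposited table has 395 and 21.

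In 2212 genes with names of 8 or more characters the count columns were displaced and were put back. Treated library 4 then differed from the authors' deposited table in 32 of 33 such genes, and 0 values differed elsewhere, so these genes were fitted without it. Another 55 names were unusable.

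Counts were filtered with filterByExpr, scaled by TMM and tested by edgeR's quasi-likelihood method, with 1 fit over the 3 groups (12 libraries) (edgeR 4.0.16, R 4.3.3), which was tested on simulated data. Other tools were DESeq2 1.42.0, Python 3.11.15, pandas 2.3.3, numpy 2.4.6 and matplotlib 3.10.9. Precision is given as the SE of the log2 fold change. Intervals for genes with 1 to 3 control counts are exact at 95% and, like the floor of 3 counts, cover counting error only. Coordinates are from GENCODE M21 by symbol, promoters from RefSeq (GRCm38.p6).

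Members, lists, the motifs and a panel of 58 genes were chosen with earlier results of these data known. Named genes are the panel, the 20 largest folds and 10 largest CPM differences per direction, up to 5 members per list by p, and 5 per direction called also against ECM. A sex-linked list was not analysed here, and a gene of the panel is not reported here.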

Additional observations from a re-analysis of the deposited data

Results flagged for a closer look

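In 149 groups of 4 libraries of the named genes, the library at one end was compared with the other 3 by its gap relative to the whole range; 14 groups exceeded Dixon's 95% critical value, and chance flags about 1 in 20 groups. Control 4 was the library at the end in 4 of them: it was the highest control for B2m (197 CPM) and P2ry12 (95.7 CPM) and the lowest for H2-K1 (18.3 CPM) and Bcl3 (0.0 CPM). Control 1 was the lowest for Zbp1 (0.0 CPM). In 5 genes with 1 control count in all, the flag marks only the library that held it: Cxcl11, F10 and Ms4a4c in control 1 (0.0534 CPM each) and Ly6i and Nkg7 in control 2 (0.0619 CPM each). Among treated libraries, library 4 was the highest for Nkg7 (4.93 CPM) and Mbp (6040 CPM), and library 2 for Asb14 (0.335 CPM), while library 1 was the lowest for Casp4 (1.41 CPM).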

How the results depend on the processing

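The count of 287 higher genes stayed within 1.5 times under every alternative run, from 217 with the replicate number as a block to 430 with DESeq2, and lay between 221 and 321 when 1 library was left out. The 8 lower genes became 26 with DESeq2 (all 8 among them), 16 with the 8 treated and control libraries alone, 3 with the replicate block, 45 without the 3 libraries with over 10% mitochondrial reads (an alternative chosen after seeing the data, which gave 426 higher genes), and between 2 and 13 when 1 library was left out; the cause was not tested. In all 12 omissions of 1 library, 202 of the 287 and 1 of the 8 kept their call. With the 8 treated and control libraries alone, 245 of the 287 and 6 of the 8 kept it. Same-numbered treated and control libraries had correlations of -0.0331, 0.135, -0.291 and -0.113 over genes, and only library 2 correlated best with its own number. With 4 libraries a group, and control 4 apart from the other controls, these values cannot settle whether the numbers pair the libraries. The labels do not say what the numbers mean. With the replicate block, 12 named genes passed the threshold no longer: the lower genes Asb14, Bach2, Bmx, Fmo2 and Gm765 (adjusted p = 0.0686, 0.179, 0.106, 0.0598 and 0.0809, edgeR) and the higher genes C4b, Cd8b1, Col4a1, Creld2, Hmox1, P2ry6 and Sdf2l1 (0.0544, 0.0632, 0.056, 0.0905, 0.0704, 0.0755 and 0.135). Without a filter 288 and 8 genes were called, and with RLE scaling 287 and 8. Over 78 named genes and all alternatives, 1610 of 1709 values kept direction and side of the threshold, 96 lost the call, 3 gained it and 0 turned direction. Of 2200 list counts, 120 moved by over 1.5 times. The unadjusted p was below 0.05 in 1663 genes. Depth limits genes under 1 CPM, where a control library holds few counts.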
